A study of Rattus norvegicus with 25 samples.

Results

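The collapsin response mediator proteins (CRMPs) are a family of 5 genes, Crmp1, Dpysl2, Dpysl3, Dpysl4 and Dpysl5, all 5 of which were found by name among the 26312 gene identifiers measured in each region. The family was picked because Dpysl5 (also called Crmp5) is named for the dentate gyrus (DG) in the comparison of stress-exposed rats with low and with high anxiety-like behavior, so its members were chosen by measured DG levels of stress-low and stress-high animals. The values of that comparison are given as a description, without a test. Each member had 1 identifier and 1 transcript model, and all 5 passed the filter on low counts in both regions.

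Adult male Sprague-Dawley rats were immobilized once for 3 h with fox urine as predator scent, or stayed in the home cage with a cage change as controls, and RNA was taken on day 9 from punches of the left basolateral amygdala (BLA) and the left dorsal DG. Tail blood was drawn during the immobilization. In the 2 days before RNA was taken, all rats, controls included, went through open field, elevated plus maze, light-dark box and acoustic startle tests. The stress-exposed rats sequenced were picked from the ends of the range of a composite anxiety-like behavior score. They form the stress-low (scores 0 to 2) and stress-high (13 to 15) groups, and the other stress-exposed rats were not sequenced. Control scores ran from 0 to 6. The BLA gave 7 control, 3 stress-low and 3 stress-high libraries and the DG 6, 3 and 3, of which 1 control per region was left out as standing apart on the first principal component, leaving 12 BLA and 11 DG libraries. No line, transgene or drug was involved, each library is 1 region of 1 animal, and stress-exposed rats also spent the nights after the stressor in another room, which cannot be told apart from the stressor itself. The BLA library of animal 35 carries a control library name and a treatment field for immobilization. It was taken as control, and values without it are given where it matters. Total expected counts ran from 12709493 to 22801247 in the BLA and from 11656439 to 19477932 in the DG. Prox1 and C1ql2, markers of dentate granule cells, averaged 76.9 ± 13.1 and 362 ± 84.5 TPM (SD, n = 5) in DG controls against 2.59 ± 0.251 and 2.94 ± 0.831 TPM (n = 6) in BLA controls. Dsp, of the same list, was also higher in the DG (6.39 ± 2.80 against 0.252 ± 0.104 TPM). Calb1 went the other way, at 106 ± 18.8 TPM in DG controls and 139 ± 20.2 in BLA controls. Of the list for excitatory neurons of the BLA, Slc17a6 was higher there, at 13.15 ± 4.64 TPM against 2.43 ± 0.469 in the DG. Lmo3 and Rspo2 did not mark it off as clearly, with Lmo3 at 183 ± 16.8 TPM in the BLA and 121 ± 17.3 in the DG, and Rspo2 at 12.3 ± 2.37 and 18.7 ± 3.47. Slc17a7 was higher in the DG (1830 ± 88.0 TPM) than in the BLA (1044 ± 114).

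CRMPs are cytosolic phosphoproteins that carry the repulsive signal of semaphorin 3A from its neuropilin and plexin receptors to the cytoskeleton of growing axons and dendrites. Dpysl2 (Crmp2) binds tubulin dimers and promotes microtubule growth, and kinases such as Cdk5, Gsk3b and Rock2 weaken that binding by phosphorylation. Dpysl3 (Crmp4) also acts on actin, and Dpysl5 restrains dendrite growth and is found in newly formed neurons of the adult DG, where neurogenesis continues. The family resembles the liver and kidney enzyme dihydropyrimidinase (Dpys) in sequence.

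The windows around the annotated start sites of 3 members are shown because Dpysl5 is the gene that the family was picked for, and Crmp1 and Dpysl4 had the highest Pearson r of any pair across BLA libraries. Each is a RefSeq promoter window on GRCr8 of 250 bases before the start and 50 after it. For Dpysl4 the RefSeq gene record begins at chr1:203312646, before the start used for its window and before the GC box and octamer marked there. Capitals mark matches, on either strand, to the GC box GGGCGG, the CCAAT box CCAAT or the octamer ATGCAAAT.
Dpysl5, chr6:31379299-31379598, minus strand: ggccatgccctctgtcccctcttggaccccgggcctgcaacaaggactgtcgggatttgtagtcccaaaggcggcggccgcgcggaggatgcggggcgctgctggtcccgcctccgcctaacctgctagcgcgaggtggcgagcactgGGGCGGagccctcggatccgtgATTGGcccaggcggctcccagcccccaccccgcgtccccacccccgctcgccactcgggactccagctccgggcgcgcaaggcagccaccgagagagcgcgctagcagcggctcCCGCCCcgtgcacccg
Crmp1, chr14:77780867-77781166, minus strand: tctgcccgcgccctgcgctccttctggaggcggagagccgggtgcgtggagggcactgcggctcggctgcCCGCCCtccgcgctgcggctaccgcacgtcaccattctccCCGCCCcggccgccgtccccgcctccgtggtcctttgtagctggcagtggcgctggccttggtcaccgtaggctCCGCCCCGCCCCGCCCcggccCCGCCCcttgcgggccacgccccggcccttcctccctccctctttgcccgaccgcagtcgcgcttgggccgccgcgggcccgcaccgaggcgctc
Dpysl4, chr1:203312463-203312762, plus strand: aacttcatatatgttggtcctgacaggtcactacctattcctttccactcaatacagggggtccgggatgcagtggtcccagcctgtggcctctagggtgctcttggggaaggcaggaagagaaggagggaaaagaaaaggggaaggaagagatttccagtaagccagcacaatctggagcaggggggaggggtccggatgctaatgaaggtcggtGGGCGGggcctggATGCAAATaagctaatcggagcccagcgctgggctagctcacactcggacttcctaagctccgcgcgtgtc
The Crmp1 window held 6 GC boxes, of which 3 in a row share 1 base with the next, the Dpysl5 window 2 and the Dpysl4 window 1, where 33.1% of the 33469 RefSeq promoters held at least 1. Crmp1 and Dpysl5 had G or C at 77.7% and 73.7% of their bases, more than in 98.2% and 95.7% of all promoters, and Dpysl4 at 56.3%, more than in 64.1%. Dpysl4 alone of these had an octamer, a motif in 1.78% of promoters, and Dpysl5 alone had a CCAAT box, found in 37.5%. The TATA box TATAAA and the cAMP response element TGACGTCA had no match in the 3 windows, against 14.2% and 1.83% of all promoters. Dpysl3 had a pair of RefSeq starts with 3 and 1 GC boxes. A match describes the letters of a window and not a site in use. No entry was matched for Dpysl2.

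Within a library, levels per length (TPM, the share of a gene among a library's transcripts scaled to a fixed sum) put the members in nearly the same order in both regions, with Dpysl2 above Crmp1 and Crmp1 above Dpysl4. In the BLA, Dpysl2 averaged 275 ± 23.5 TPM (SD, n = 12), Crmp1 111 ± 9.90, Dpysl4 54.4 ± 4.67, Dpysl5 30.0 ± 4.54 and Dpysl3 22.3 ± 3.97. In the DG the means were 244 ± 14.9 for Dpysl2 (n = 11), 191 ± 12.6 for Crmp1, 61.1 ± 3.53 for Dpysl4, 24.5 ± 4.55 for Dpysl3 and 18.8 ± 2.26 for Dpysl5. The ranges of neighbors in this order did not overlap except for the last pair, Dpysl5 and Dpysl3. Dpysl5 was above Dpysl3 in 12 of 12 BLA libraries and below it in 11 of 11 DG libraries. Dpysl2 made up 55.8% ± 1.31 of the summed TPM of the family in the BLA and 45.2% ± 2.01 in the DG, Crmp1 22.5% ± 0.828 and 35.4% ± 1.31, and Dpysl5 6.09% ± 0.578 and 3.48% ± 0.370. The regions were quantified in separate tables, and the deposited length exceeded the effective length by 50 bases in the BLA and by 260.8 to 274.3 bases in the DG, so these levels are set side by side without a test. Dpys itself did not exceed 0.22 TPM in any retained library. The plot of levels by library shows these values and their spread.

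**Figure D1:**
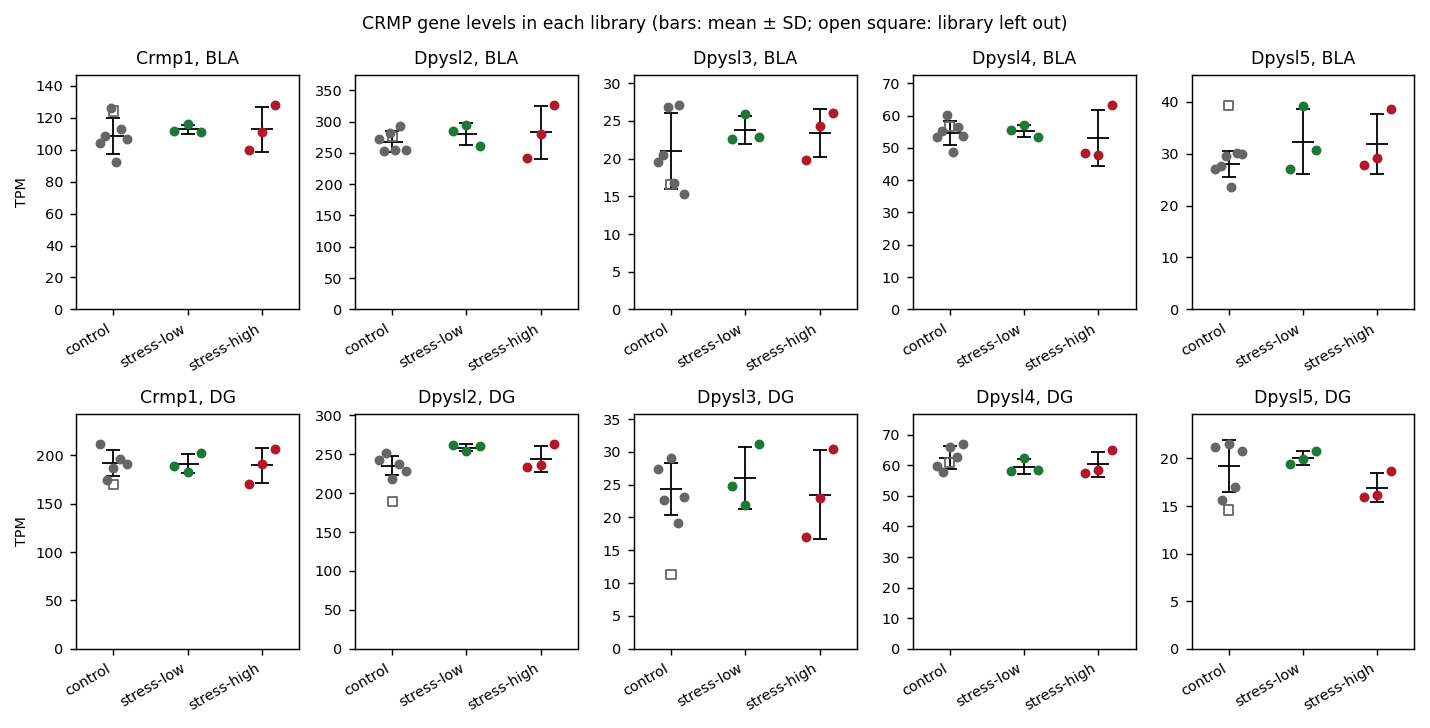
Level (TPM, linear axis from 0) of each CRMP gene in every library of the BLA (top row) and DG (bottom row), by group. Filled points are libraries, bars the mean ± SD of the retained libraries, and open squares the control library left out. In the DG, the 3 stress-low libraries of Dpysl2 lie above all 5 controls and the 3 stress-high libraries of Dpysl5 lie below all 3 stress-low libraries.

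The rule's own contrast, DG stress-low against stress-high, showed Dpysl5 lower in stress-high animals. Dpysl5 was at 19.39, 19.98 and 20.81 TPM in the stress-low libraries (animals 22, 33 and 34) and at 15.95, 16.11 and 18.73 TPM in the stress-high libraries (animals 7, 19 and 20). The groups did not overlap, and the stress-high library of animal 20 came closest to the stress-low libraries. The log2 fold change of stress-high over stress-low in edgeR was -0.24 with a standard error (SE) of 0.10. Leaving out each stress library in turn kept it between -0.30 and -0.22. The other members differed by less, with log2 fold changes of -0.01 ± 0.07 for Crmp1, -0.08 ± 0.07 for Dpysl2, -0.14 ± 0.18 for Dpysl3 and 0.02 ± 0.06 for Dpysl4, and their groups overlapped. Of all 14080 genes tested, 8.69% had groups that did not overlap in TPM, 4.51% with stress-high lower, and 3.12% had an unadjusted p under 0.05 in edgeR, while 0.0% had an adjusted p under 0.05 (0 genes, and 4 in DESeq2). In bulk tissue, fewer cells that express a gene and less RNA per cell cannot be told apart. Of the list for immature neurons (7 of 8 found by name, with Sox4 not found and 1 of a pair of Stmn1 identifiers under 0.1 TPM in every library), 6 of the 6 tested entries had log2 fold changes below 0 in this contrast, with a median of -0.16. The summed TPM of the list ran from 413 to 462 in stress-low and from 379 to 421 in stress-high libraries. Most of that sum was Stmn1, at 344 ± 28.1 and 325 ± 18.2 TPM, a gene that also averaged 842 ± 55.4 TPM in BLA controls. Dcx, the doublecortin gene of migrating new neurons, was at -0.24 ± 0.16. Its mean was 7.08 ± 1.35 TPM in DG controls and 10.1 ± 1.74 in BLA controls, so in this bulk tissue it is not particular to the DG. Sox11 and Calb2 of the list were also higher in BLA controls, while Igfbpl1, Neurod1 and Eomes were higher in DG controls. All 3 stress-high libraries were also deeper (16201792 to 19477932 expected counts) than all 3 stress-low libraries (11656439 to 15547038). Oligodendrocyte genes were also below 0 in 7 of 7 (median -0.08) and genes of mature granule cells above 0 in 4 of 4 (median 0.10). The part of any of these in the Dpysl5 difference was not tested.

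Each stress group was also set against unstressed controls. These comparisons share the stress libraries with the one above and, between them, the controls. Dpysl5 was picked by the difference between these stress groups, which favors values on opposite sides of the controls. Its p values here do not allow for that choice and are no independent support. DG controls spread more widely in Dpysl5 than either stress group, at 21.16, 15.61, 21.47, 17.03 and 20.78 TPM in animals 2, 14, 17, 28 and 32, and overlapped both. Against controls, Dpysl5 had a log2 fold change of -0.16 (SE 0.09, adjusted p = 1.0, edgeR) in stress-high animals and 0.08 (SE 0.09, adjusted p = 0.838) in stress-low animals. The exact two-sided permutation test on TPM gave p = 0.214 (16.9 ± 1.56 TPM, n = 3, against 19.2 ± 2.70, n = 5) and p = 0.607 (20.1 ± 0.713 TPM, n = 3), where the smallest p that 5 against 3 libraries can give is 0.0179. The differences in mean, -2.28 and 0.85 TPM, were smaller than the SD of the controls, though larger than that of the stress group concerned. The control left out, animal 35, was at 14.59 TPM, below every library kept, and with it the permutation p values were 0.441 and 0.429. The study left out a DG control that had low RNA quality and stood apart after its RNA was extracted again. The labels do not name that library, and animal 35 was taken for it by its place on the first principal component.

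Dpysl2 was the 1 member of 5 with an unadjusted p under 0.05 in a comparison with controls, being higher in DG stress-low animals, in a comparison where 6.9% of all genes tested had such a p and 0.0% an adjusted p under 0.05 (0 genes, and 5 in DESeq2). Dpysl2 was at 242.73, 251.2, 218.37, 237.13 and 228.14 TPM in the controls (animals 2, 14, 17, 28 and 32) and at 261.33, 253.68 and 260.96 TPM in the stress-low libraries (22, 33 and 34). Every stress-low library was above every control, which 3.71% of all genes showed in either direction. The log2 fold change was 0.15 (SE 0.06, adjusted p = 0.718, edgeR), and the exact two-sided permutation test on TPM gave p = 0.0357 (259 ± 4.31 TPM, n = 3, against 236 ± 12.7, n = 5). The difference did not pass the correction over all genes. It ran from 0.11 to 0.20 when each library was left out, and the lowest adjusted p, 0.235, came without control animal 14. Stress-high libraries lay between, at 233.28, 236.09 and 262.62 TPM, with a log2 fold change over controls of 0.07 (SE 0.06). Oligodendrocytes also express Dpysl2, and 7 of 7 genes of the oligodendrocyte list had edgeR log2 fold changes above 0 in DG stress-low animals (median 0.11). Cldn11, a tight junction gene of myelin, was at 0.29 ± 0.13 (SE). In mean TPM, Mobp of that list went the other way, at 119 ± 19.4 in controls and 108 ± 9.61 in stress-low libraries. The summed TPM of that list ran from 1607 to 2192 in controls and from 2010 to 2166 in stress-low libraries, and its part in the Dpysl2 difference was not tested.

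Crmp1, Dpysl3 and Dpysl4 stayed within 0.11 of controls on the log2 scale in both stress groups of the DG, none with an unadjusted p under 0.05. Crmp1, a mediator of semaphorin 3A and reelin signals, averaged 192 ± 13.5 TPM in controls (n = 5), 192 ± 9.91 in stress-low and 190 ± 18.1 in stress-high libraries (n = 3 each), with log2 fold changes over controls of 0.01 and 0.00 (SE 0.06 each). Dpysl4 (Crmp3) averaged 62.5 ± 3.89, 59.6 ± 2.39 and 60.3 ± 4.11 TPM, with log2 fold changes of -0.05 and -0.03 (SE 0.05 each). Dpysl3 had the widest spread of the family relative to its mean, from 16.98 to 30.44 TPM among the 3 stress-high libraries alone, and its log2 fold changes of 0.11 and -0.03 came with an SE of 0.17 and 0.16, the second ranging from -0.23 without animal 20 to 0.14 without animal 7. In the comparison of controls with stress-high animals, 0 of 5 members had an unadjusted p under 0.05 against 2.19% of all genes, 0 of 5 had groups that did not overlap against 1.46%, and 0.0% of genes had an adjusted p under 0.05 (0 genes in edgeR, 309 at an unadjusted p under 0.05, and 1 gene in DESeq2).

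In the BLA, Dpysl5 was above controls on average in both stress groups, and the groups overlapped. Its levels were 23.66 to 30.08 TPM in the 6 controls (median 28.6), 26.95, 39.19 and 30.74 TPM in stress-low animals 22, 30 and 34, and 27.76, 29.21 and 38.54 TPM in stress-high animals 7, 19 and 20. One library of each stress group, those of animals 30 and 20, stood well above the rest. The log2 fold change over controls was 0.17 (SE 0.09, adjusted p = 1.0, edgeR) in stress-low and 0.18 (SE 0.09, adjusted p = 1.0) in stress-high animals. Without animal 30 the first was 0.05, without animal 22 it was 0.27, and without animal 20 the second was 0.10. The exact permutation test on TPM gave p = 0.155 and p = 0.226, with 0.0119 the smallest p possible for 6 against 3. The BLA control left out, animal 2, had 39.33 TPM, above every library kept, and with it the log2 fold changes were 0.12 and 0.13. Without the library of animal 35, whose labels disagree, they were 0.19 and 0.21.

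The remaining BLA members differed from controls by at most 0.16 on the log2 scale. Dpysl3 had 0.15 (SE 0.13) in stress-low and 0.16 (SE 0.13) in stress-high animals, with controls from 15.27 to 27.1 TPM, stress-low libraries from 22.62 to 25.89 and stress-high libraries from 19.85 to 26.08. Leaving out the library of animal 35, the lowest control, moved these to 0.08 and 0.09. Dpysl2 had 0.02 and 0.07 (SE 0.05 each), Crmp1 0.02 and 0.06 (SE 0.06 each), and Dpysl4 -0.02 and -0.04 (SE 0.06 each). An unadjusted p under 0.05 was seen for 0 of 5 members with either stress group, against 2.75% and 2.57% of all genes, and groups that did not overlap for 0 of 5, against 1.39% and 0.978%. Set against stress-low, the members in BLA stress-high libraries differed by -0.02 to 0.05 with SE from 0.06 to 0.15. An unadjusted p under 0.05 was seen for 0 of 5, against 1.98% of all genes, and no overlap for 0 of 5, against 5.89%. In each BLA contrast 0.0% of genes had an adjusted p under 0.05 (0 genes in edgeR, with 419, 392 and 302 below 0.05 before adjustment, and 1, 2 and 1 in DESeq2).

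**Figure D2:**
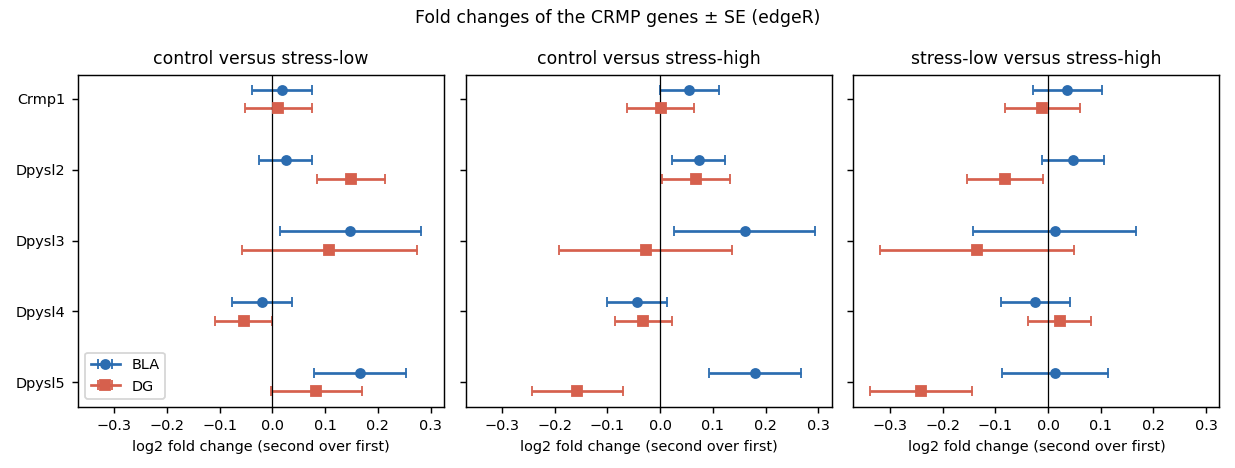
Log2 fold change ± SE (edgeR) of each CRMP gene in the 3 comparisons, second group over first, in the BLA (circles) and DG (squares). Dpysl5 lies above 0 in the BLA and below 0 in the DG when stress-high animals are set against controls, at 0.18 and -0.16.

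Whether the regions responded unequally was tested in 1 fit over both. The DG stress-high libraries that enter the next value were also among those that picked the family, so it is no independent support. For stress-high against control, the Dpysl5 log2 fold change was lower in the DG than in the BLA (DG minus BLA -0.33, SE 0.13, adjusted p = 1.0, edgeR). Its unadjusted p was under 0.05, as for 1.84% of all genes, while 0.0% of genes had an adjusted p under 0.05 (0 genes, and 2 in DESeq2). It did not pass the correction. Without BLA stress-high animal 20 the difference was -0.26 and with every mapped library -0.27, both with an unadjusted p above 0.05. With the animal as a random block it was -0.32 (adjusted p = 1.0, limma voom). The other 4 members differed between regions by -0.19 (Dpysl3, SE 0.23) to 0.01 (Dpysl4, SE 0.07) in this contrast. For stress-low against control the regions differed by -0.10 (Dpysl5) to 0.11 (Dpysl2), 0 of 5 members against 3.21% of all genes having an unadjusted p under 0.05. For stress-high against stress-low, which holds the contrast used to pick the family, Dpysl5 was at -0.24 (SE 0.15), with no test given, and 2.0% of all genes had an unadjusted p under 0.05.

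Levels of a member in the BLA and the DG of the same animal could be compared in 9 animals. Pearson's r of log2(TPM + 1), with Spearman's coefficient in parentheses, was 0.496 for Crmp1 (0.450), 0.470 for Dpysl2 (0.5), 0.506 for Dpysl3 (0.583), 0.547 for Dpysl4 (0.5) and 0.279 for Dpysl5 (0.267). None of the 5 passed an exact two-sided permutation test, with p from 0.122 to 0.509 for Pearson's and from 0.108 to 0.493 for Spearman's coefficient, and adjusted p over the 5 of 0.254 or more and 0.287 or more, respectively. The 2 animals farthest from the median BLA level were then left out, chosen for each member separately, so the animals kept can differ between members. In the same order, r was 0.881, 0.162, 0.520, 0.368 and 0.385. Crmp1 alone had an adjusted permutation p under 0.05 (0.0476), while its Spearman coefficient of 0.679 had an adjusted p of 0.333. As deviations from the group means, r was 0.486, 0.573, 0.557, 0.695 and 0.659 with adjusted permutation p of 0.139 to 0.183. Such deviations cancel out within each group, which the permutation over all 9 animals ignored, so these p values may be too small.

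**Figure D3:**
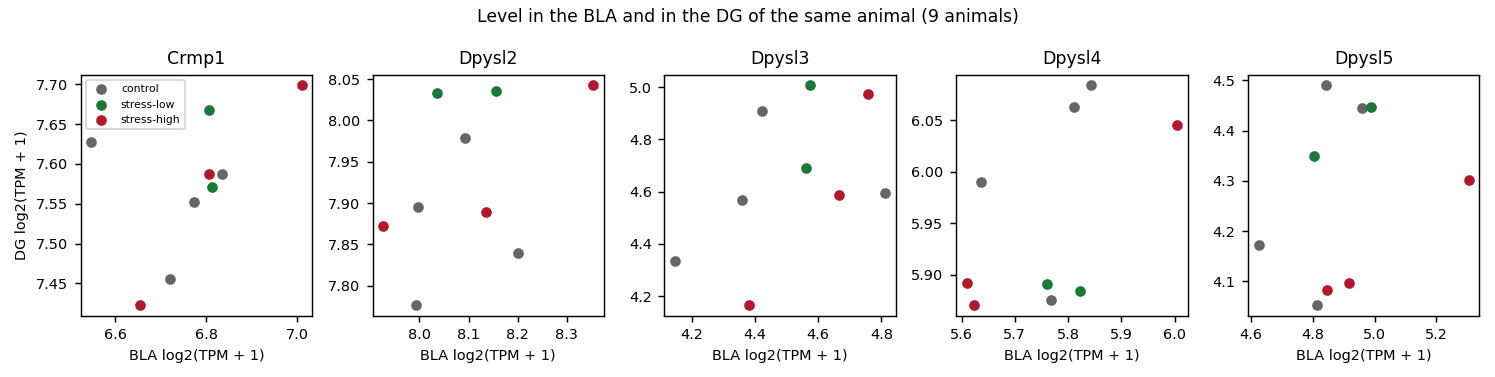
Level of each CRMP gene in the BLA (x axis) and the DG (y axis) of the same 9 animals, both as log2(TPM + 1), colored by group. The points scatter widely in all 5 panels, with r from 0.279 (Dpysl5) to 0.547 (Dpysl4).

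Across libraries of the BLA the members varied together, and in the DG their correlations were more mixed. All 10 pairs had a positive r over the 12 BLA libraries, from 0.542 (Dpysl3 and Dpysl4) to 0.838 (Crmp1 and Dpysl4). Over the 11 DG libraries r ran from -0.387 (Dpysl2 and Dpysl4) to 0.663 (Crmp1 and Dpysl3), Dpysl5 was at 0.659 with Dpysl3 and -0.02 with Dpysl2. These correlations are a description, since the genes share each library with its depth and tissue makeup, and 1193 of 13261 genes had an r of at least 0.8 with Crmp1 in the BLA against 238 of 12883 in the DG.

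**Figure D4:**
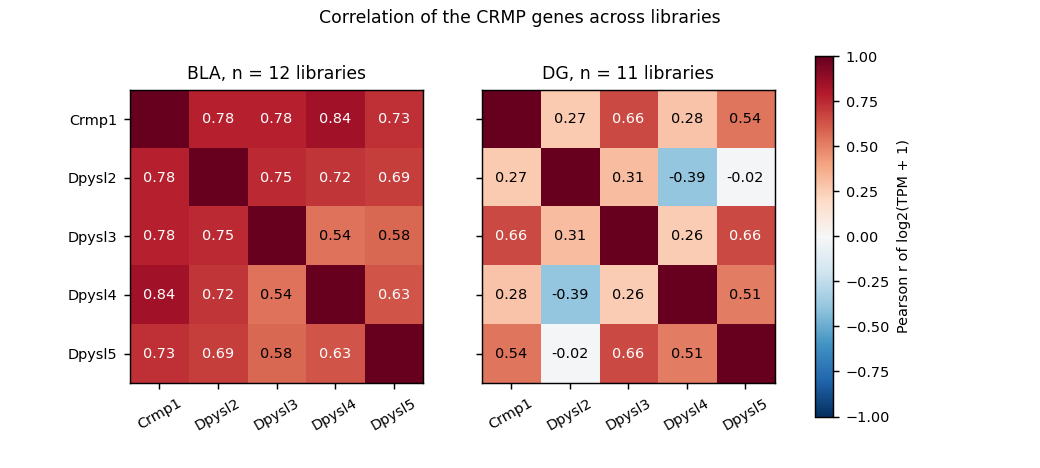
Pearson r of log2(TPM + 1) between CRMP genes across the 12 BLA libraries (left) and the 11 DG libraries (right). All 10 pairs are positive in the BLA, while Dpysl2 is at -0.387 with Dpysl4 in the DG.

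The genes most like each member were listed by r over the libraries of a region. For Dpysl5 in the DG these were SLC25A51 (0.940), Kif13a (0.907), Fam160a2 (0.884), Adamts3 (0.879) and Mybbp1a (0.876), and in the BLA Slc6a9 (0.956), Pcid2 (0.951), Tmem130 (0.949), Prkacb (0.942) and Pnmal2 (0.940). Of these 10, Mybbp1a also had an r of 0.775 with Dpysl5 in the BLA, and Slc6a9 had 0.237 and Pcid2 0.145 in the DG. For Crmp1, Zer1 (0.977), Kif3c (0.968) and Tbc1d10b (0.965) led in the BLA, with 0.845, 0.841 and 0.780 in the DG, where Pqbp1 (0.963), RGD1566084 (0.952) and Apba2 (0.949) led. Dpysl2 was followed by Zdhhc9, CLASP1 and Arnt2 in the BLA (0.962 to 0.971) and by Lipa, Kcnip4 and Atp6v1h in the DG (0.899 to 0.939). Dpysl3 was followed by Gnas, Grin2d and Prmt2 (0.913 to 0.928) and by Sptan1, Fam115a and Ap2b1 (0.927 to 0.946). Dpysl4 was followed by Yy1, Fam214b and Pom121 (0.948 to 0.970) and by Zfp652, Hcfc1 and Adcy5 (0.926 to 0.931).

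The genes around the family in the semaphorin pathway were followed through a list of 30 partners, of which 28 were found by name (Plxna1 and Plxna4 were not) and all 28 were tested in both regions. No partner had an adjusted p under 0.05 in edgeR in the 6 contrasts. Before adjustment 2 of 28 were under 0.05, both in DG stress-low animals against controls and both higher, a share near the 6.9% of all genes in that contrast. These were Rock1 at 0.31 (SE 0.11, adjusted p = 0.718, edgeR) and Rock2 at 0.25 (SE 0.10, adjusted p = 0.718, edgeR), a pair of kinases of the cytoskeleton. Rock1 averaged 27.3 ± 2.53 TPM in DG controls (24.34 to 31.17) and 33.1 ± 4.44 in stress-low libraries (29.66 to 38.07), so the groups overlapped. Gsk3b followed at 0.12 (SE 0.06). The median log2 fold change of the 28 was 0.01 there and -0.00 over all genes.

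Elsewhere no partner reached an unadjusted p of 0.05. In the DG the closest were Fyn (-0.07, SE 0.05), Plxna3 (-0.07, SE 0.06) and Tubb2b (-0.11, SE 0.09) for stress-high against control, and Gsk3b (-0.12, SE 0.06), Mical1 (0.26, SE 0.15) and Rock1 (-0.21, SE 0.13) for stress-high against stress-low. In the BLA they were Klc1 (-0.10, SE 0.07), Cdk5r1 (-0.14, SE 0.11) and Wasf1 (-0.11, SE 0.09) for stress-low against control, Fes (0.37, SE 0.21), Cyfip1 (-0.10, SE 0.07) and Rhoa (-0.08, SE 0.06) for stress-high against control, and Nrp1 (-0.21, SE 0.12), Gsk3b (0.13, SE 0.08) and Fes (0.36, SE 0.24) for stress-high against stress-low. Sema3a and the neuropilin genes differed between the regions in level. Sema3a averaged 28.0 ± 4.32 TPM in BLA controls (n = 6) and 0.608 ± 0.186 in DG controls (n = 5). The neuropilin genes were lower in the BLA, with Nrp1 at 6.67 ± 0.413 and 52.2 ± 2.89 TPM and Nrp2 at 12.0 ± 1.96 and 56.5 ± 5.67. These levels come from separately quantified tables and were not tested.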

How the data were processed

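The authors sequenced poly-A RNA from punches of both regions, mapped it with STAR 2.6.0a (Rn5, Ensembl build 75) and quantified genes with RSEM 1.3.1. Each deposited expected count is RSEM's estimate of a gene's reads, often not a whole number. The authors' tables also hold TPM, length and effective length, as well as FPKM, which was not used. Groups came from the labels, and within a region each library is a separate animal, while most animals gave a library in both regions. The control farthest from the median on PC1 was dropped in each region, since the study dropped 1 per region. Rounded expected counts were tested in edgeR 4.0.16 by quasi-likelihood (TMM scaling, filterByExpr at 10 counts, a mean per group, Benjamini-Hochberg adjustment over all genes tested, threshold 0.05). The difference between regions used 6 means in 1 fit. TPM was compared by exact permutation (scipy 1.17.1). Alternatives were DESeq2 1.42.0, limma 3.58.1 on log2(TPM + 1) and log2(TPM + 0.1), RLE size factors, an unfiltered fit, fits of 2 groups, every mapped library, summed gene models, the title number as a block, and each library left out. The fits of edgeR, DESeq2 and limma for stress-low against stress-high were tried on simulated data. EBSeq, the authors' tool, was not run. Members and lists were chosen with earlier results of these data known. Genes named are the members, up to 3 partners per comparison with the smallest p and, for each member, the 3 genes (5 for Dpysl5) with the highest r among those averaging 1 TPM or more. Promoter windows are RefSeq's. Some genes are not reported here.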

Additional observations from a re-analysis of the deposited data

How the results depend on the processing

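No member had an adjusted p under 0.05 in edgeR, DESeq2 or limma under any alternative run, the lowest being 0.235 (Dpysl2, DG stress-low against control, without control animal 14), apart from the contrast that picked the family, where no p is given. Of 390 member fold changes under settings other than a library left out, 362 kept their direction, and of 460 with 1 library left out, 412 did. Those that changed sign were smaller than their SE in the fit of the report, and the cause was not tested. The number of genes with an adjusted p under 0.05 was 0 in edgeR as fitted in the report. DESeq2 gave 1, 2 and 1 in the BLA, 5, 1 and 4 in the DG and 2, 2 and 1 for the difference between regions (control with stress-low, control with stress-high, stress-low with stress-high). For the BLA, limma gave 1 (TPM + 1) and 2 (TPM + 0.1) for the first, 2 unfiltered for the second, and 2 (TPM + 0.1) and 1 (unfiltered) for the last, and edgeR on only the groups compared gave 1 for the second. With 1 library left out, the second and last BLA comparisons ranged from 0 to 1 (1 without stress-high animal 20). The split of genes at an unadjusted p under 0.05 in BLA stress-low animals against controls was 176 higher and 243 lower in edgeR, and 277 and 113 in limma on log2(TPM + 1).

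Sign changes among the log2 fold changes were as follows. With every mapped library, Dpysl4 was 0.0021 in BLA stress-low against control, Crmp1 was -0.0027 in DG stress-low and -0.014 in DG stress-high against control, Dpysl3 was 0.080 in DG stress-high, and Dpysl4 was -0.052 for the region difference in stress-high. In limma on log2(TPM + 1), filtered or not, Dpysl4 was 0.019 in BLA stress-low, Crmp1 -0.0030 in DG stress-low and -0.021 in DG stress-high against control, and Crmp1, Dpysl5 and Dpysl3 were -0.0054, -0.018 and -0.026 in BLA stress-high against stress-low. With log2(TPM + 0.1) these were 0.020, -0.0030, -0.021, -0.0055, -0.018 and -0.027. Crmp1 in DG stress-high against control, at 0.00063, turned to -1.2e-06 in DESeq2, -0.00018 with RLE size factors, -0.0021 without the filter and -0.00031 with only these groups. With the animal as a random block Dpysl2 was 0.0058 for the region difference in stress-high.

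With 1 library left out, the ranges that crossed 0 in the BLA were -0.0020 to 0.050 for Crmp1 (stress-low against control), -0.11 to 0.0093 for Dpysl4 (stress-high against control), and -0.033 to 0.070 for Dpysl3, -0.086 to 0.030 for Dpysl4 and -0.090 to 0.13 for Dpysl5 (stress-high against stress-low). In the DG they were -0.027 to 0.045 for Crmp1 and -0.034 to 0.22 for Dpysl3 (stress-low against control), -0.045 to 0.055 and -0.23 to 0.14 (stress-high against control), and -0.056 to 0.043, -0.34 to 0.034 and, for Dpysl4, -0.015 to 0.050 (stress-high against stress-low). For the region difference they were -0.060 to 0.016 for Crmp1, -0.19 to 0.061 for Dpysl3 and -0.20 to 0.019 for Dpysl5 (stress-low), -0.095 to 0.0049 for Crmp1, -0.050 to 0.039 for Dpysl2 and -0.040 to 0.076 for Dpysl4 (stress-high), and -0.073 to 0.027 for Crmp1 and -0.34 to 0.040 for Dpysl3 (stress-high against stress-low).

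The Crmp1 correlation between regions was 0.881 without the 2 animals farthest from the median, the single case past the threshold. Deviations of same-numbered stress libraries had r from -0.0390 to 0.0398 (BLA) and from -0.185 to -0.0791 (DG). Differently numbered ones had r from -0.0764 to 0.0700 (BLA) and from -0.0850 to 0.224 (DG). These values cannot decide whether the replicate numbers in the titles pair the samples. Deviations of 3 libraries from their mean sum to 0, and DG animals 19 and 20 share a number. A block for that number gave 0 genes in each of the 6 comparisons, and Dpysl5 in BLA stress-high against control 0.22. With 3 stress animals per group and SE of 0.05 to 0.18 for members within a region, changes of that size could not be told from 0.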

Other observations

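Other cell type lists gave no gene with an adjusted p under 0.05 in edgeR in any comparison. In the BLA, the list for oligodendrocytes had 7 of 7 genes above 0 against controls in both stress groups, with medians of 0.18 in stress-low (1 of 7 at an unadjusted p under 0.05, against 2.75% of all genes) and 0.12 in stress-high animals (0 of 7, against 2.57%), against medians of -0.00 over all genes. These comparisons share their controls. The list for the striatum and central amygdala, tissue beside the BLA punch, had summed TPM from 69.0 to 199 in BLA controls, 90.2 to 188 in stress-low and 87.8 to 100 in stress-high libraries. In the DG, all 4 genes for mature granule cells were below 0 in stress-low animals against controls (median -0.12) and all 6 tested genes for immature neurons were above 0 (median 0.12), Dcx with 0.30 ± 0.14 (SE, adjusted p = 0.718, edgeR). Astrocyte genes had a median of -0.10 in DG stress-high animals against controls, with 0 of 6 above 0 and 1 at an unadjusted p under 0.05 (2.19% of all genes), and microglial genes were at -0.10 in DG stress-low animals with 2 of 6 above 0. Ttr, a choroid plexus gene, was listed under 0.1 TPM in every BLA library.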
